A study of Rattus norvegicus with 28 samples.

Results

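Eotaxin (Ccl11) and 4 other chemokines, Ccl2, Ccl5, Cx3cl1 and Cxcl12, were followed in the terminal ileum of newborn rats. A probe set is a group of array probes read out as 1 signal, and every probe set whose platform annotation gave the symbol of 1 of these genes was taken, with no filter on intensity. This gave 7 of the 8740 probe sets on the array that were not controls, covering 4 of the 5 genes, out of 4736 genes with a symbol. Ccl11 and Ccl5 had 1 probe set each, Ccl2 had 2 and Cx3cl1 had 3. No probe set carried the symbol Cxcl12, so that gene is not analysed here. The genes had been selected on the signal difference between the feeding regimens, so their values by regimen, and against unfed newborns, are given as descriptions with 95% intervals and without a test.

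The pups were of the species Rattus norvegicus; the sources used here give neither the strain nor details of the formula or the hypoxia. Pups of the FFH group were fed formula, underwent hypoxia 3 times a day and were killed on day 1, 2, 3 or 4 of life (n = 3 a day). BF pups were nursed by breast feeding and killed on the same days (n = 3 a day). Unfed newborns formed the last group (n = 4) and were placed at day 0. The series addresses the development of necrotizing enterocolitis, an injury of the immature bowel for which this regimen serves as a rat model. Each of the 28 arrays held total RNA of the ileum of 1 pup. Formula and hypoxia always came together, so their effects cannot be told apart, nor can either be told apart from the absence of maternal milk. In RNA from whole tissue, fewer cells of a type and less RNA per cell cannot be told apart.

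Chemokines are small secreted proteins that draw leukocytes along a gradient by way of receptors coupled to G proteins. Ccl11 acts through Ccr3 on eosinophils, which reside in the gut wall, and it is made by fibroblasts, smooth muscle, epithelium and macrophages, often in response to the type 2 cytokines Il4 and Il13. Ccl2 draws monocytes through Ccr2. Ccl5 acts on T cells, eosinophils and monocytes through receptors that include Ccr1 and Ccr3. Cx3cl1 (fractalkine) is anchored in the membrane of epithelium and endothelium and is bound by Cx3cr1 on macrophages and lymphocytes. In the RefSeq annotation Ccl2 (gene ID 24770), Ccl7 and Ccl11 (gene ID 29397) are consecutive coding genes on chromosome 10, with Ccl12 next. Ccl5 (gene ID 81780) is also on chromosome 10, beside Ccl9, and Cx3cl1 (gene ID 89808) lies between Ccl17 and Ccl22 on chromosome 19.

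Signals below are the deposited intensities after quantile normalisation, on a linear scale, and folds are on the log2 scale after adding 8, which understates the change of dim probe sets. Of the 28 arrays, BF day 3 replicate 3 and BF day 4 replicate 2 stood apart. In them, 69 and 48 probe sets that were abundant elsewhere were dim, against 0 to 2 in the other arrays, and their median correlations with the rest were 0.883 and 0.892, against 0.913 to 0.953. The samples had been registered in 2 runs of accession numbers, which were treated as a possible batch. The later run held 9 arrays, among them all 3 BF day 4 arrays, 1 FFH day 4 array and 3 unfed arrays. BF day 1 replicate 2 and BF day 3 replicate 3 were also in it. The earlier run thus held no BF day 4 array, and every mean regimen difference within it covers days 1 to 3. Not every ileum marker was bright: Slc10a2 averaged 39.6 ± 22.1 in FFH pups and 33.3 ± 4.85 in BF pups. Apoa1 made up most of the ileum sum, at 8940 ± 2580 in FFH pups and 7790 ± 1640 in BF pups. Taken as sums, the markers of ileum (5 of 5 measured) and intestinal epithelium (8 of 11) were bright in every group. Their summed signals were 7580 to 15000 and 18600 to 29700 in FFH pups, 6270 to 12700 and 15700 to 27500 in BF pups, and 5690 to 8010 and 15600 to 29400 in unfed newborns.

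Of the chemokine genes with a probe set, Ccl11 had the widest gap between the regimens. Its signal averaged 13.4 ± 13 in FFH pups and 88.3 ± 32.1 in BF pups (SD, n = 12 each), against 113 ± 40.8 in unfed newborns (n = 4). FFH pups of day 1 gave 44.0, 23.3 and 13, those of day 2 gave 22.2, 2.77 and 4.28, those of day 3 gave 2.5, 24.4 and 1.16, and those of day 4 gave 2.46, 14.1 and 6.94. BF pups of day 1 gave 90.0, 64.7 and 131, those of day 2 gave 113, 77.0 and 98.3, those of day 3 gave 80.6, 112 and 96.6, and those of day 4 gave 19.4, 52.0 and 124. The unfed newborns gave 71.8, 138, 157 and 85.9. On each of the 4 days all FFH pups lay below all BF pups, a pattern found for 26 of the 8740 probe sets (0.297%). Single days with FFH pups below BF pups without overlap were common over the array, at 5.76%, 8.02%, 8.12% and 9.61% of probe sets on days 1 to 4. Across days the ranges met, since the brightest FFH pup (44.0, day 1) exceeded the dimmest BF pup (19.4, day 4).

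**Figure D1:**
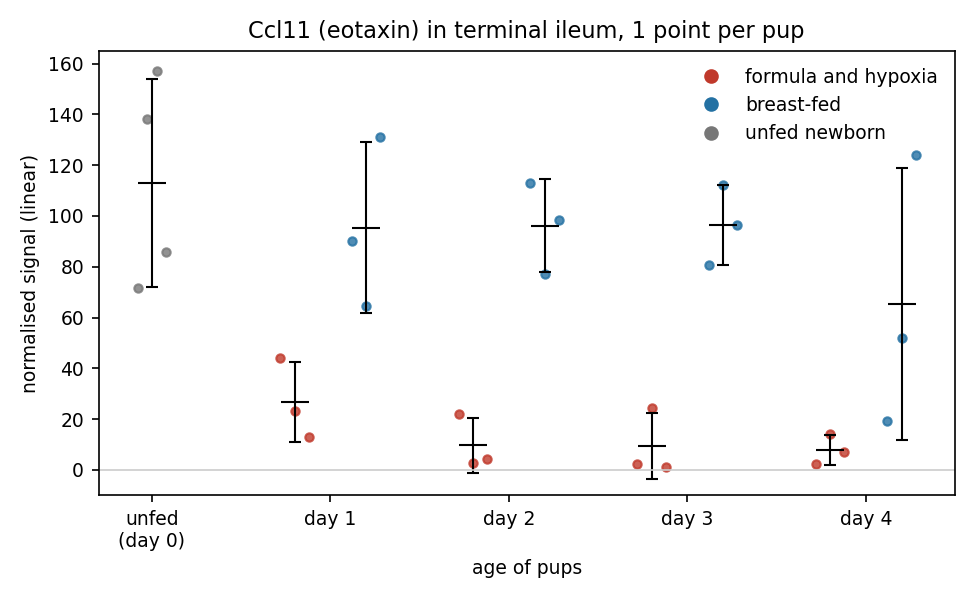
Normalised Ccl11 signal (linear scale, vertical axis) of each pup by age, with FFH pups in red left of BF pups in blue and unfed newborns in grey at day 0; black bars are the group mean ± SD (n = 3, unfed n = 4). On each day the 3 FFH pups, between 1.16 and 44.0, sat below the 3 BF pups, between 19.4 and 131.

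The day means of Ccl11 in FFH pups were 26.8 ± 15.8, 9.76 ± 10.8, 9.34 ± 13 and 7.82 ± 5.85 on days 1 to 4. In BF pups they were 95.4 ± 33.7, 96.2 ± 18.3, 96.4 ± 15.7 and 65.2 ± 53.6. In order of mean signal the unfed newborns came first, then BF days 3, 2, 1 and 4, then FFH days 1 to 4. Neighbours in this order overlapped within 1 SD throughout, including BF day 4 and FFH day 1, because the 3 BF day 4 pups were spread from 19.4 to 124.

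Averaged over the 4 days, Ccl11 was 4.87-fold lower in FFH than in BF pups (95% interval 3.35 to 7.08). By day it was 3.08-fold lower on day 1 (1.46 to 6.49), 6.5-fold on day 2 (3.08 to 13.7), 7.09-fold on day 3 (3.36 to 15.0) and 3.98-fold on day 4 (1.89 to 8.4). Since 6 of the 12 FFH signals were under 8, the amount added before the log, the size depends on that amount: the log2 change of -2.29 was -2.91 with 2 added and -1.39 with 32 added. Within the earlier accession run, over days 1 to 3, the change was -2.46. On day 4 of the later run, with 1 FFH pup against 3 BF pups, it was -2.01. Leaving out both arrays that stood apart gave -2.28. Over all probe sets, 333 were lower (3.81%) and 175 higher (2.0%) in FFH than in BF pups at an adjusted p under 0.05.

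Set against the unfed newborns, FFH pups had 3.57-fold less Ccl11 signal on day 1 (1.78 to 7.18) and 7.67-fold less on day 4 (3.81 to 15.4). BF pups had 1.16-fold less on day 1 (0.577 to 2.34) and 1.93-fold less on day 4 (0.958 to 3.88), and both intervals held 1. These 4 values share the same unfed arrays, most of which were of the later accession run. All FFH day 1 arrays were of the earlier run and all BF day 4 arrays of the later. The log2 change of BF day 1 against unfed was -0.22, and 0.55 within the earlier run and -0.85 within the later. The earlier run held 1 unfed array and the later run 1 BF day 1 array, so each within-run value rested on 1 pup on 1 side. That of FFH day 4 was -2.94, and -3.67 with 2 added before the log and -1.83 with 32 added.

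Changes with age, and the change of the regimen difference with age, were tested, as the genes had been selected on the difference between the regimens. Since earlier results of these data were known when the genes were chosen, it cannot be said that the choice was independent of age. For Ccl11 no test passed. FFH day 4 was lower than FFH day 1 by 1.10 ± 0.52 (SE) on the log2 scale (adjusted p = 0.235, unadjusted p = 0.0453). BF day 4 differed from BF day 1 by -0.73 ± 0.52 (adjusted p = 0.567). The regimen difference on day 4 minus that on day 1 was -0.37, with a 95% interval of -1.90 to 1.15 (adjusted p = 0.995), and its sign turned to 0.20 without BF day 4 replicate 3.

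None of the 7 probe sets passed in any of the 3 age comparisons. Without adjustment, 1 had p under 0.05 for FFH day 4 against day 1, 3 for BF day 4 against day 1 and 3 for the change of the regimen difference. Over the array, 5.51%, 0.286% and 0.0572% of probe sets were called in these comparisons at an adjusted p under 0.05. The share with unadjusted p under 0.05 is not given, so the unadjusted counts cannot be read against these shares. The 3 for BF day 4 against day 1 included both probe sets of Ccl2.

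Ccl2, the monocyte attractant encoded next to Ccl7 and Ccl11, showed no gap of that kind. Its 2 probe sets, X17053mRNA_s_at and X17053cds_s_at, followed each other (Pearson r = 0.87 over the 28 arrays, which share groups and normalisation). X17053mRNA_s_at averaged 123 ± 72.5 in FFH pups and 151 ± 47.8 in BF pups (SD, n = 12 each), against 189 ± 48.9 in unfed newborns (n = 4). X17053cds_s_at averaged 92.2 ± 40 in FFH pups and 90.3 ± 26.4 in BF pups, against 101 ± 35.2 in unfed newborns. The mean log2 regimen difference was -0.39 (95% interval -0.80 to 0.01) by the first and -0.01 (-0.37 to 0.35) by the second, so both intervals held 0.

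With X17053mRNA_s_at, day 1 signals were 99.2, 214 and 60.7 in FFH pups and 235, 229 and 154 in BF pups. Day 2 signals were 62.5, 69.7 and 58.3 in FFH pups and 145, 97.3 and 136 in BF pups. Those of day 3 were 181, 132 and 103 in FFH pups and 156, 202 and 125 in BF pups, and those of day 4 were 131, 291 and 76.7 in FFH pups and 85.8, 118 and 132 in BF pups. The regimens were separate on day 2 only, with FFH below BF, as were 8.02% of all probe sets on that day. X17053cds_s_at overlapped on every day. FFH pups differed widely among themselves: on day 1 and again on day 4, replicate 2 was the brightest of the 3 with both probe sets (161 and 178 with X17053cds_s_at).

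The log2 regimen difference of X17053mRNA_s_at was -0.84 on day 1 (-1.64 to -0.03), -0.89 on day 2 (-1.70 to -0.08), -0.21 on day 3 (-1.02 to 0.60) and 0.36 on day 4 (-0.45 to 1.17). The day 4 value minus the day 1 value was 1.20 ± 0.55 (SE, adjusted p = 0.792, unadjusted p = 0.0407), and for X17053cds_s_at it was 0.91 ± 0.49 (adjusted p = 0.858). On day 4 of the later accession run, where 1 FFH pup could be set against 3 BF pups, the difference was -0.48 by the first probe set and -0.02 by the second. Over days 1 to 3 of the earlier run it was -0.67 and -0.22. BF day 4 was lower than BF day 1 by 0.83 and 0.84 on the log2 scale, and neither change passed (adjusted p = 0.348 and 0.29).

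Ccl5 was dim. Its mean signal over the 28 arrays was 8.06, under the signal of 24 that marked the 40th percentile of the array, while the other 6 probe sets were above that mark. It averaged 6.61 ± 2.38 in FFH pups and 12.9 ± 12.3 in BF pups (SD, n = 12 each), against 6.2 ± 0.786 in unfed newborns (n = 4). On days 1 and 2 its signal was 3.97 to 7.04 in FFH pups and 4.87 to 6.29 in BF pups, against 5.52 to 7.28 in the unfed newborns. On day 3 it was 4.9, 13.1 and 6.48 in FFH pups and 4.67, 20.9 and 21.4 in BF pups. On day 4 it was 7.77, 8.25 and 5.58 in FFH pups and 21.9, 45.0 and 7.92 in BF pups. The 4 signals above 20 were thus all from BF pups of days 3 and 4, yet the regimens overlapped on each day.

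The arrays that stood apart, BF day 3 replicate 3 and BF day 4 replicate 2, gave 2 of those 4 bright Ccl5 signals, and 3 of the 4 were from the later accession run. The mean log2 regimen difference of Ccl5 over days 1 to 4 was -0.36 (-0.68 to -0.05). Within the earlier run, which covers days 1 to 3 only, it was -0.08. With all arrays the difference was -0.01 on day 2 and -0.48 on day 3. Ccl5 was 1.93-fold lower in FFH than in BF pups on day 4 (1.25 to 2.99), a log2 change of -0.95. That change was -0.53 without both arrays that stood apart and -0.85 with accession run as a term of the model. On day 4 of the later run, with 1 FFH pup against 3 BF pups, it was -1.11. BF day 4 exceeded BF day 1 by 1.13 ± 0.30 (SE) on the log2 scale, which did not pass (adjusted p = 0.112, unadjusted p = 0.00105). The adjusted p was 0.0157 on the intensities as deposited, 0.011 without BF day 4 replicate 3 and 0.405 without both arrays that stood apart. Within the later run, with 1 BF day 1 pup against 3 BF day 4 pups, the log2 change was 1.04. BF day 4 exceeded the unfed newborns 2.07-fold (1.38 to 3.11), and FFH day 4 exceeded them 1.07-fold (0.711 to 1.61). The part of the array quality and of the run in these values was not tested.

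**Figure D2:**
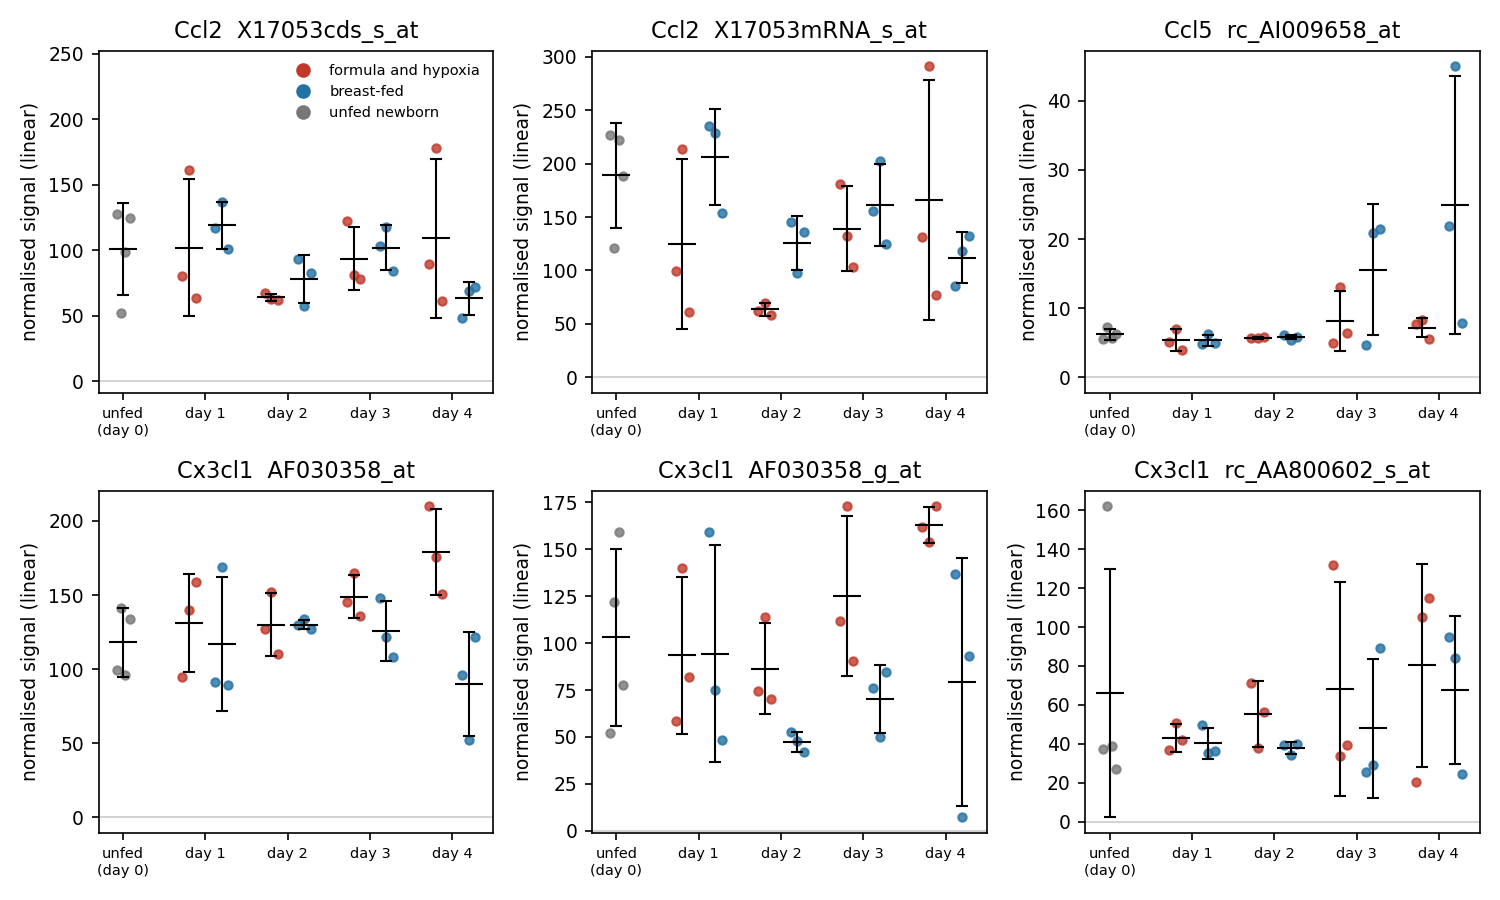
Normalised signal (linear scale, vertical axes) of the 6 other chemokine probe sets in each pup by age, with FFH in red left of BF in blue and unfed newborns in grey; black bars are the group mean ± SD (n = 3, unfed n = 4). Ccl5 stayed under 14 in all FFH pups and exceeded 20 in 4 BF pups, and Cx3cl1 AF030358_at was above BF in all 3 FFH pups of day 4.

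Cx3cl1, the membrane-bound fractalkine, ran the other way from Ccl11 in the 2 probe sets whose names share a sequence record. AF030358_at averaged 147 ± 30.1 in FFH pups and 116 ± 30.7 in BF pups (SD, n = 12 each), against 118 ± 23.3 in unfed newborns (n = 4). FFH pups of day 1 gave 94.8, 140 and 159, those of day 2 gave 127, 152 and 110, those of day 3 gave 145, 165 and 136, and those of day 4 gave 210, 176 and 151. BF pups of day 1 gave 91.6, 169 and 89.3, those of day 2 gave 130, 134 and 127, those of day 3 gave 148, 122 and 108, and those of day 4 gave 95.9, 52.3 and 122. The regimens overlapped on days 1 to 3 and were separate on day 4, with FFH above BF, as for 7.39% of all probe sets.

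On day 4 AF030358_at was 1.99-fold higher in FFH than in BF pups (1.34 to 2.94), and over the 4 days it was 1.27-fold higher (1.05 to 1.55). FFH day 4 exceeded the unfed newborns 1.49-fold (1.04 to 2.16), and BF day 4 was 1.33-fold lower than them (0.922 to 1.92). BF day 4 replicate 2, one of the arrays that stood apart, was the lowest of the 28 at 52.3. Without both such arrays the log2 difference on day 4 was 0.68 in place of 0.99. Within the earlier accession run, over days 1 to 3, the mean log2 difference was 0.20, against 0.35 over all arrays and days. On day 4 of the later run, with 1 FFH pup against 3 BF pups, the difference was 0.77.

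AF030358_g_at averaged 117 ± 42.2 in FFH pups and 72.7 ± 42.3 in BF pups, against 103 ± 47.4 in unfed newborns. FFH pups of day 1 gave 58.6, 140 and 81.8, those of day 2 gave 74.7, 114 and 70.4, those of day 3 gave 112, 173 and 90.5, and those of day 4 gave 162, 154 and 173. BF pups of day 1 gave 159, 75.2 and 48.3, those of day 2 gave 52.4, 47.6 and 41.7, those of day 3 gave 75.9, 49.9 and 84.5, and those of day 4 gave 137, 7.18 and 93.1. FFH pups were above BF pups without overlap on days 2, 3 and 4, as were 9.13%, 7.08% and 7.39% of all probe sets on those single days. The share of probe sets separate on all of these days together was not counted. Its mean over days 1 to 4 was 1.70-fold higher in FFH pups (1.14 to 2.53). The signal was 2.82-fold higher in FFH pups on day 4 (1.27 to 6.27), and the intervals of days 1 to 3 held 1. That value rested on BF day 4 replicate 2, the array with 7.18. Without both arrays that stood apart the log2 difference was 0.50 in place of 1.5. On day 4 of the later run, with 1 FFH pup, the difference was 1.58. Over days 1 to 3 of the earlier run the mean log2 difference was 0.54.

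The third probe set, rc_AA800602_s_at, did not follow the other two (r = -0.14 with AF030358_at and 0.14 with AF030358_g_at over the 28 arrays, against 0.59 between those). It averaged 61.7 ± 36.2 in FFH pups and 48.5 ± 25.6 in BF pups, against 66.2 ± 63.8 in unfed newborns. The regimens overlapped on each day, and its mean log2 difference was 0.26 (-0.35 to 0.87). That was 0.44 over days 1 to 3 of the earlier run. On day 4 of the later run, with 1 FFH pup, the difference was 0.87. The increase of the regimen difference from day 1 to day 4 did not pass for any of the 3 (adjusted p = 0.821, 0.858 and 0.998). The mean log2 regimen difference was above 0 in AF030358_at, AF030358_g_at and rc_AA800602_s_at (0.35, 0.76 and 0.26), with an interval that held 0 for the last. The probe sets thus differed in their pattern over the arrays, and the regimen difference of Cx3cl1 is given per probe set.

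**Figure D3:**
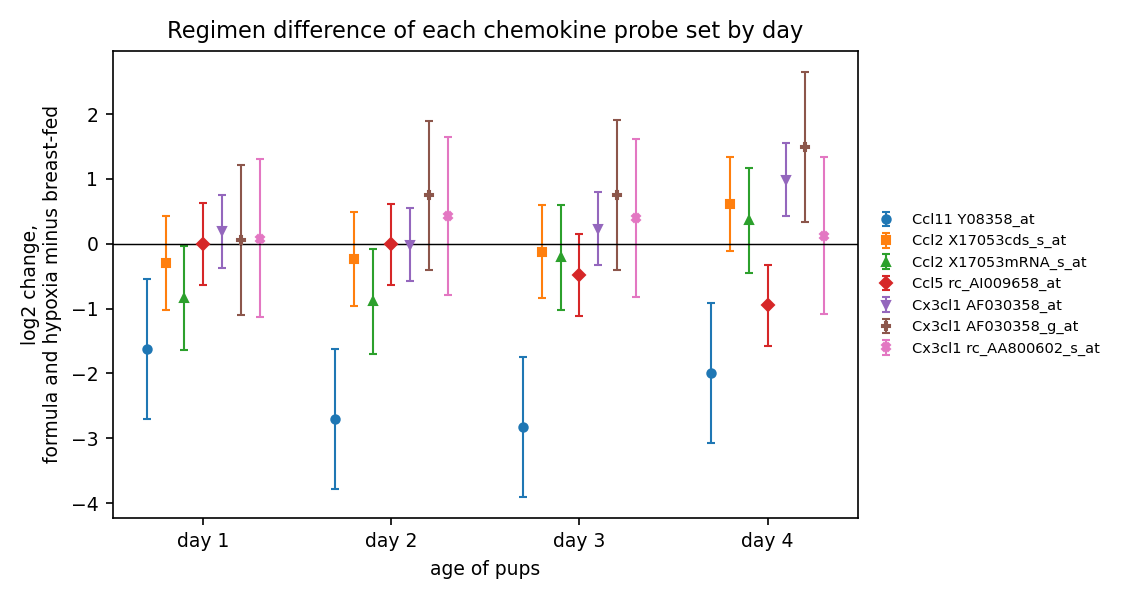
Log2 change, FFH minus BF, of each of the 7 chemokine probe sets on days 1 to 4 (horizontal axis), with 95% intervals from the model over all arrays. Ccl11 lay between -1.62 and -2.83 with its interval under 0 on each day, while the intervals of the others held 0 except those of Ccl2 X17053mRNA_s_at on days 1 and 2 and of Ccl5 and both AF030358 probe sets of Cx3cl1 on day 4.

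The receptors of these chemokines were measured in part. Ccr3, the eotaxin receptor of eosinophils, had a signal of 13.3 ± 5.09 in FFH pups and 9.52 ± 5.25 in BF pups (n = 12 each), against 11.1 ± 5.43 in unfed newborns (n = 4). Ccr2, the receptor of Ccl2, was at 6.43 ± 3.12 in FFH pups and 6.18 ± 4.79 in BF pups, against 7.93 ± 6.45 in unfed newborns. Both were near the dim end of the array in all groups. Ccr1 was at 41.8 ± 8.13 in FFH pups and 33.5 ± 5.02 in BF pups (log2 change 0.25, adjusted p = 0.201). Cx3cr1, which binds Cx3cl1, was at 25.7 ± 14.3 in FFH pups and 18.8 ± 7.74 in BF pups (0.25, adjusted p = 0.602). The receptors of Cxcl12 were also measured: Cxcr4 was at 179 ± 25.7 in FFH pups and 174 ± 37.4 in BF pups, and the scavenging receptor Ackr3 at 138 ± 60.8 in FFH pups and 113 ± 71.2 in BF pups, with adjusted p = 0.842 for Cxcr4 and 0.425 for Ackr3. Of the 10 chemokine receptors measured, of 22 listed, 0 passed in either direction for the mean over days, and their median log2 change was 0.21. Over the 4736 genes with a symbol, 115 were higher, 204 were lower and the median was 0.02.

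Among the 11 other chemokines measured, of 30 listed, 3 were lower in FFH pups, 0 were higher and 8 did not pass, with a median log2 change of 0.08. Cxcl13, which guides B cells into lymphoid follicles, ranged from 51.1 to 166 with a median of 71.5 in FFH pups and from 91.4 to 296 with a median of 200 in BF pups, against 109 to 191 in unfed newborns. It was lower by 1.19 ± 0.17 (SE) on the log2 scale (adjusted p = 0.000106). Cxcl14, a chemokine of epithelium and stroma, ranged from 15.7 to 76.8 (median 23.4) in FFH pups and from 34.8 to 149 (median 82.2) in BF pups, against 20.1 to 85.5 in unfed newborns. It was lower by 1.15 ± 0.24 (adjusted p = 0.0041), and its other probe set was lower by 0.56 (adjusted p = 0.00592). Within the earlier accession run alone the first value was -1.01 and did not pass (adjusted p = 0.0587).

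Xcl1 (lymphotactin), secreted by activated CD8 T cells and natural killer cells, ranged from 5.61 to 30.2 (median 8.94) in FFH pups and from 9.46 to 55.1 (median 39.8) in BF pups, against 6.18 to 16 in unfed newborns. It was lower by 1.12 ± 0.20 in FFH than in BF pups (adjusted p = 0.00102). The FFH and BF ranges of Cxcl13, Cxcl14 and Xcl1 overlapped when the days were pooled. For Xcl1 the FFH and the unfed pups covered similar signals and the BF pups reached higher ones. Among the 8 that did not pass, Cxcl2 had a log2 change of 0.04 (adjusted p = 0.863), Cxcl10 of 0.11 (adjusted p = 0.736) and Ccl20 of 0.47 (adjusted p = 0.363). Ccl20 averaged 175 ± 177 in FFH pups and 93.4 ± 23.8 in BF pups.

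**Figure D4:**
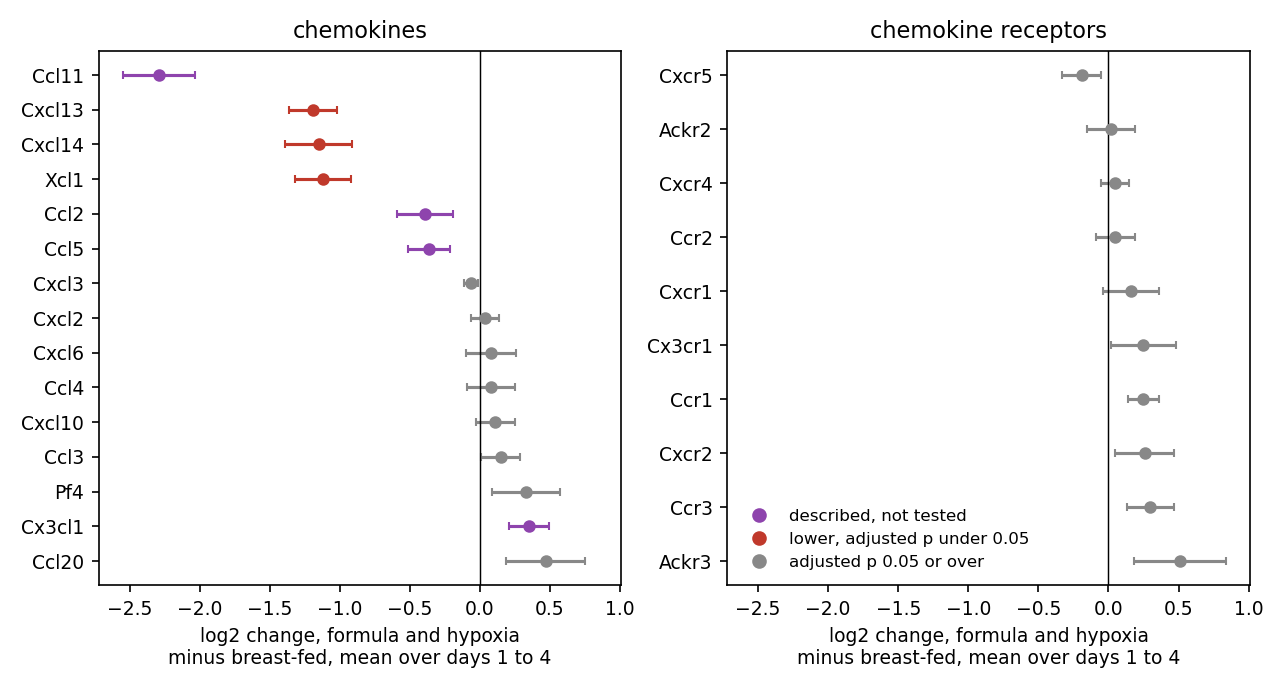
Log2 change, FFH minus BF as the mean over days 1 to 4 (horizontal axis, bars are SE), of the chemokines (left) and chemokine receptors (right) with a probe set; Ccl2 and Cx3cl1 are shown by their brightest probe set. Ccl11 was at -2.29, Cxcl13, Cxcl14 and Xcl1 were between -1.19 and -1.12, and all 10 receptors were between -0.19 and 0.51.

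Of the type 2 cytokine genes upstream of eotaxin, 10 of 16 were measured, 1 was lower in FFH pups and 0 were higher, with a median log2 change of 0.03. The inducing cytokines Il4 and Il13 had log2 changes of 0.24 (adjusted p = 0.406) and -0.16 (adjusted p = 0.782), and their signal transducer Stat6 of -0.01 (adjusted p = 0.982). Their receptor chain Il4r was at 159 ± 41.7 in FFH pups and 113 ± 33.9 in BF pups (0.48, adjusted p = 0.0869). Il33, an epithelial and stromal alarm signal for type 2 responses, was at 35.1 ± 13.9 in FFH pups and 55.7 ± 21.1 in BF pups (-0.56, adjusted p = 0.0707). The gene that passed was Jak3, a kinase of cytokine receptors, with 8.35 ± 3.36 in FFH pups and 18.4 ± 13.2 in BF pups, against 30.4 ± 4.25 in unfed newborns. Its log2 change was -0.56 (adjusted p = 0.0436), and the call was lost in 23 of 38 alternatives.

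Of the NF-kB pathway and the inducers of inflammatory chemokines, 12 of 21 genes were measured, 2 were higher in FFH pups and 0 were lower, with a median of 0.16. Nfkbia, the inhibitor of NF-kB that is itself induced by it, ranged from 106 to 445 (median 220.0) in FFH pups and from 64.5 to 151 (median 95.2) in BF pups. It was higher by 1.19 ± 0.23 (adjusted p = 0.0025), and by 1.06 in its other probe set (adjusted p = 0.00841). Within the earlier accession run its change was 0.95 and did not pass (adjusted p = 0.0505). Tnfrsf1a, a receptor of tumour necrosis factor, ranged from 121 to 299 (median 201) in FFH pups and from 25.8 to 186 (median 98.7) in BF pups, and was higher by 1.14 ± 0.24 (adjusted p = 0.00489). The ligands Tnf, Il1b and Il6 had log2 changes of -0.07, -0.31 and 0.18, which did not pass (adjusted p = 0.831, 0.233 and 0.571). Of 18 measured genes of chemokine processing and adhesion, of 20 listed, 0 passed, with a median of -0.03. Dpp4, a protease that trims chemokines including eotaxin, was at 108 ± 46.4 in FFH pups and 195 ± 109 in BF pups (-0.75, adjusted p = 0.0903). In the 3 age comparisons, 0 genes of these 5 lists passed.

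Markers of cells that make or follow the chemokines also differed between the regimens, and the part of cell makeup in the values above was not tested. Of 11 fibroblast and mesenchyme markers, 4 were lower in FFH pups, 0 were higher and 7 did not pass, with a list median of -0.60. The 4 were Tcf21, Lum, Postn and Thy1 (log2 changes of -1.63, -1.54, -1.44 and -0.80). Of the 7, Dcn, Col1a1, Col1a2 and Pdgfra had log2 changes of -0.85, -0.60, -0.44 and -0.35. Those of Fn1, Vim and Col3a1 were -0.29, -0.01 and 0.22. Over the 4736 genes with a symbol, 204 were lower and 115 higher. The second Tcf21 probe set did not pass (-0.44, adjusted p = 0.0768). Within the earlier accession run neither Postn (-1.26, adjusted p = 0.0734) nor Thy1 (-0.71, adjusted p = 0.109) passed. The summed signal of this list was 2920 to 7020 in FFH pups and 4920 to 10300 in BF pups, against 3550 to 6540 in unfed newborns. Smooth muscle (6 measured) and endothelium (5 measured) had 0 genes that passed in this comparison. Their sums were 5050 to 14000 and 125 to 262 in FFH pups and 6020 to 13200 and 134 to 194 in BF pups, against 3920 to 7100 and 150 to 185 in unfed newborns.

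Of 11 eosinophil markers, 3 were measured. Prg2, the granule major basic protein, was at 7.69 ± 3.16 in FFH pups and 6.4 ± 2.41 in BF pups (n = 12 each), against 7.76 ± 1.52 in unfed newborns, so a defining eosinophil gene was at the dim end of the array in each group. Epx is not analysed here. Alox15, a lipoxygenase of eosinophils and of other cells, was lower by 1.39 in FFH pups (adjusted p = 0.00013). The summed eosinophil list was 39.4 to 137 in FFH pups and 83.0 to 267 in BF pups, against 92.3 to 149 in unfed newborns. Within that sum Alox15 averaged 58.2 ± 32.3 in FFH pups and 157 ± 61.3 in BF pups, while Prg2 and Ccr3 had log2 changes of 0.12 and 0.30 that did not pass (adjusted p = 0.535 and 0.324), and the median of the 3 was 0.12. Of 10 measured mast cell markers, 3 were lower, the proteases Mcpt4, Mcpt1 and Cpa3 (log2 changes of -3.08, -2.36 and -0.90), 0 were higher and 7 did not pass, with a list median of -0.11. Within the earlier run the log2 change of Cpa3 was -1.09 and did not pass (adjusted p = 0.0796). The other measured mast cell proteases, Cma1, Tpsab1 and Tpsb2, had log2 changes of -0.46, 0.22 and 0.30 that did not pass (adjusted p = 0.0725, 0.345 and 0.144), and those of the receptors Kit, Fcer1a and Ms4a2 were -0.02, 0.05 and 0.04. The list summed to 409 to 1270 in FFH pups and 1150 to 2150 in BF pups, against 900 to 1770 in unfed newborns, with Hdc under 8 in all groups. In that sum Mcpt1 averaged 203 ± 162 in FFH pups and 887 ± 270 in BF pups, and Mcpt4 averaged 7.22 ± 9.1 in FFH pups and 130 ± 82.9 in BF pups.

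Among 11 measured lymphocyte markers, 2 were lower, the T cell genes Cd8a and Cd3d (log2 changes of -1.17 and -0.98), and 9 did not pass, with a list median of -0.10. The T cell genes Cd3g, Cd8b, Cd4 and Cd2 had log2 changes of 0.01, 0.15, -0.09 and 0.08 (adjusted p = 0.979, 0.624, 0.859 and 0.837). Cd2 and Prf1 were under 8 in all groups. The list summed to 381 to 706 in FFH pups and 453 to 748 in BF pups, against 460 to 571 in unfed newborns. Among 7 measured monocyte and macrophage markers, Ctss was lower (-0.82) and Itgam higher (0.55). Itgam did not pass with run as a term (0.46, adjusted p = 0.148). The list summed to 1370 to 2790 in FFH pups and 2330 to 3620 in BF pups, against 1260 to 2530 in unfed newborns, with the means of Ccr2 and Itgam dim and a list median of 0.05. Ctss made up most of that sum, at 1440 ± 390 in FFH pups and 2500 ± 407 in BF pups. Lyz2, Csf1r, Cd14 and Cx3cr1 had log2 changes of 0.04, -0.01, 0.23 and 0.25, which did not pass (adjusted p = 0.938, 0.989, 0.398 and 0.602). Among 5 measured granulocyte markers, S100a9 was higher (0.71, adjusted p = 0.0342), though it did not pass with run as a term (0.66, adjusted p = 0.127). The list summed to 90.4 to 180 in FFH pups and 63.2 to 120 in BF pups, against 67.0 to 234 in unfed newborns.

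Some markers also changed with age. Between FFH day 4 and FFH day 1, 165 of the 4736 genes with a symbol were higher on day 4 and 152 were lower. Of 6 smooth muscle markers 3 were higher, namely Des, Myh11 and Actg2 (log2 changes of 2.04, 1.89 and 1.27), with a list median of 1.42. In the same comparison Krt19 and Krt8 of the 8 epithelial markers were higher (1.79 and 0.91), and so was the other Krt19 probe set (2.2). Pdgfra of the 11 fibroblast markers (1.36) and Apoa1 of the 5 ileum markers (0.95) were higher too, while Mcpt1 of the 10 mast cell markers was lower (-1.82). The other probe sets of Pdgfra did not pass (0.05, 0.09 and 0.26, adjusted p = 0.883, 0.921 and 0.747). Nor did that of Apoa1 (0.39, adjusted p = 0.635) or those of Myh11 (1.14 and 1.61, adjusted p = 0.482 and 0.184). Between BF day 4 and BF day 1, 11 of the 4736 genes were higher and 0 were lower. Krt18 of the epithelial markers was higher (1.00), and 0 genes of the other marker lists passed. The other Krt18 probe set did not pass (1.05, adjusted p = 0.056). All BF day 4 arrays were of the later accession run, and with run as a term 0 probe sets were called in this comparison. The change of the regimen difference from day 1 to day 4 had 0 calls in each marker list. The part of these markers in the Ccl11 values by age was not tested.

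The genes whose 9 group means ran most like those of Ccl11, among 3185 genes above the 40th percentile, were Ruvbl1 (Pearson r = 0.975), Stmn1 (0.967), Srgn (0.967), Serpinb9 (0.956) and Ywhaq (0.955). Their log2 regimen differences were -0.72, -0.76, -1.14, -1.89 and -0.51. For genes with more than 1 probe set the brightest was used, X17053mRNA_s_at for Ccl2 and AF030358_at for Cx3cl1. Dlst and Anxa4 were most like Ccl2 (r = 0.907 and 0.905), and Ptpn23 and Plcb1 most like Ccl5 (0.975 and 0.963). Most like Cx3cl1 were Il4r (0.946), the receptor chain named above, and Huwe1 (0.932). These correlations are over 9 group means that share arrays and normalisation, and they were ranked among all 3185 genes, so they describe likeness of pattern only.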

How the data were processed

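The deposited intensity values, 1 per probe set and array on a linear scale, were used as the authors gave them in the series' value table. The trimmed mean was 150 in 26 arrays, 108.9 in BF day 1 replicate 2 and 208.8 in BF day 4 replicate 1, so most arrays shared a scaling target. The sources used here do not name the software or the background correction. Array medians before normalisation ranged from 25.8 to 53.9. The array had 8799 probe sets, 59 of them controls; of the other 8740, the platform annotation gave 7006 a single symbol, 308 several and 1426 none.

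Groups were taken from titles and descriptions. Intensities were quantile normalised, 8 was added and log2 taken. In limma 3.58.1 (R 4.3.3) all 28 arrays entered 1 model with a mean for each group (19 residual degrees of freedom) with empirical Bayes moderation and an intensity trend. Tests were two-sided and adjusted by Benjamini-Hochberg over the 8740 probe sets, with a threshold of 0.05. Listed genes were read from their brightest probe set. On simulated data the fit for the mean over days, run on 8740 probe sets, recovered 89 of 100 changes of log2 size 1 and 100 of 100 of size 2, with 10 false calls.

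The genes, the 5 pathway lists and the 10 marker lists were chosen with earlier results of these data known. Named were all 7 probe sets, receptors of these chemokines (1 item is not reported here), Prg2 and Epx, pathway genes that passed, and the genes most like each chemokine (5 for Ccl11, 2 for the others). Marker genes, and pathway genes given as not passing, were chosen after their values were seen. The number of arrays limits precision.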

Additional observations from a re-analysis of the deposited data

How the results depend on the processing

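The 41 alternatives changed the normalisation, the amount added, the filter, the variance model, the arrays left out and the handling of accession runs. For probe sets called between FFH and BF over all days, 508 became 246 with run as a term and 219 within the earlier run, and 394 to 562 when single arrays were left out. For BF day 4 against day 1, 25 became 169 on deposited intensities, 10 with 1 probe set per gene, 80 with array weights, 6 without both arrays that stood apart, 0 with run as a term and 0 within the later run (chosen after seeing the data), and 1 to 94 when single arrays were left out, with 1 without BF day 4 replicate 2. For FFH day 4 against day 1, 482 became 906 with array weights and 110 to 536 when single arrays were left out, with 110 without FFH day 4 replicate 1. For the change of the regimen difference, 5 became 1 to 8 when single arrays were left out.

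Replicate numbers gave no sign of pairing the pups, though these values cannot show that no pairing existed. Deviations of same-numbered pups correlated at a median of 0.0166 over 84 pairs, with 17 over 0.1. The median was 0.0057 over 168 other pairs, with 34 over 0.1. With a replicate block the 4 counts were 475, 25, 419 and 4. Of 818 alternatives to the 21 tested chemokine values, 2 passed the threshold, both for Ccl5 in BF day 4 against day 1, and 0 were called with the opposite sign. The log2 regimen difference of Ccl11 over all days was -2.91 to -1.39 over the alternatives, and -2.43 to -2.14 when single arrays were left out. Of the 19 listed genes called between the regimens, 8 lost the call in at least 1 alternative, Jak3 and S100a9 (13 alternatives) most often.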
